A study of Mus musculus with 18 samples.

Results

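Choline transport and phosphatidylcholine synthesis were followed through 10 genes in mouse liver: the choline transporters Slc44a1 and Slc44a2, the choline kinases Chka and Chkb, the CTP-using transferases Pcyt1a and Pcyt2, the phosphotransferase Cept1, the methyltransferase Pemt, the acyltransferase Lpcat3 and the choline dehydrogenase Chdh. The genes were picked by name as steps of choline and phosphatidylcholine handling, and all 10 were found among the 19057 genes of the table. The set was chosen from earlier results on these livers, among them the level of Slc44a1 in the HS and Con groups, so the values of HS against Con are a description here and carry no test. All 10 genes passed the filter on low values, a mean of at least 1 RPKM over 18 libraries, which 10204 genes passed.

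Livers of male ICR mice were sequenced at 10 weeks of age in 6 groups of 3 libraries. Con mice were controls on the regular diet, and HS mice received a high-fat diet and a single injection of streptozotocin (STZ), which damages pancreatic beta cells. Mice of A10-FMT and Con-FMT were HS mice that also took, by mouth, small intestinal microbiota pooled from donor mice, the former from donors dosed with 10 mg/kg alginate oligosaccharide (AOS, short sugar chains made from alginate) and the latter from control donors. A pair of further groups is known from the labels alone: A10, mice given AOS at 10 mg/kg, and HS+A10, mice given the high-fat diet, STZ and AOS at 10 mg/kg. High-fat diet and STZ came together in every group that had either of them, so their parts cannot be told apart, and each recipient group rests on pooled donor material. RPKM is a read number scaled by gene length and by library size. It gives the level of a gene relative to the rest of its library, so comparisons between groups also depend on scaling, as described below. Nothing in the labels states that the libraries of a group came from separate mice, so the p-values measure the spread between these libraries.

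Phosphatidylcholine is the main phospholipid of liver membranes, of lipoprotein surfaces and of bile. Hepatocytes take up choline, phosphorylate it, activate the phosphocholine with CTP and join it to diacylglycerol, and in a second route that is largely particular to liver they methylate phosphatidylethanolamine stepwise with S-adenosylmethionine. Choline that does not enter phospholipid can be oxidised in mitochondria to betaine, a methyl donor.

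Facts of the whole table bear on what follows. Summed RPKM lay between 692818 and 806937 per library, and low values of 20 genes put relative depth between 0.918 and 1.08 of the mean, lowest in HS (0.918 to 0.963). Read numbers are unknown, and values carry no counting interval. Con replicate 3 lay between the other libraries of its group for 95.5% of 858 genes on which those differed by over 0.5 on the log2 scale, and A10 replicate 3 for 94.1% of 577, against 24.0% to 72.9% in the other libraries. Each of these libraries lay between its fellows for 8 of the 10 choline genes, and results were recomputed without both. Con-FMT replicate 3 held 20485 summed RPKM of 10 pancreatic acinar genes, 2.92% of its total, against 14.1 to 49.9 RPKM in the other 17 libraries. The 8 hepatocyte markers summed to between 42327 and 63480 RPKM over the 18 libraries, with HS+A10 (47842 to 50303 RPKM) below A10 (56292 to 62687 RPKM) in every library. Dbp, a transcription factor with a strong daily rhythm in liver, stood at 0.360 to 3.41 RPKM in the Con, A10 and HS libraries and at 47.3 to 98.8 RPKM in the HS+A10, A10-FMT and Con-FMT libraries.

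**Figure D1:**
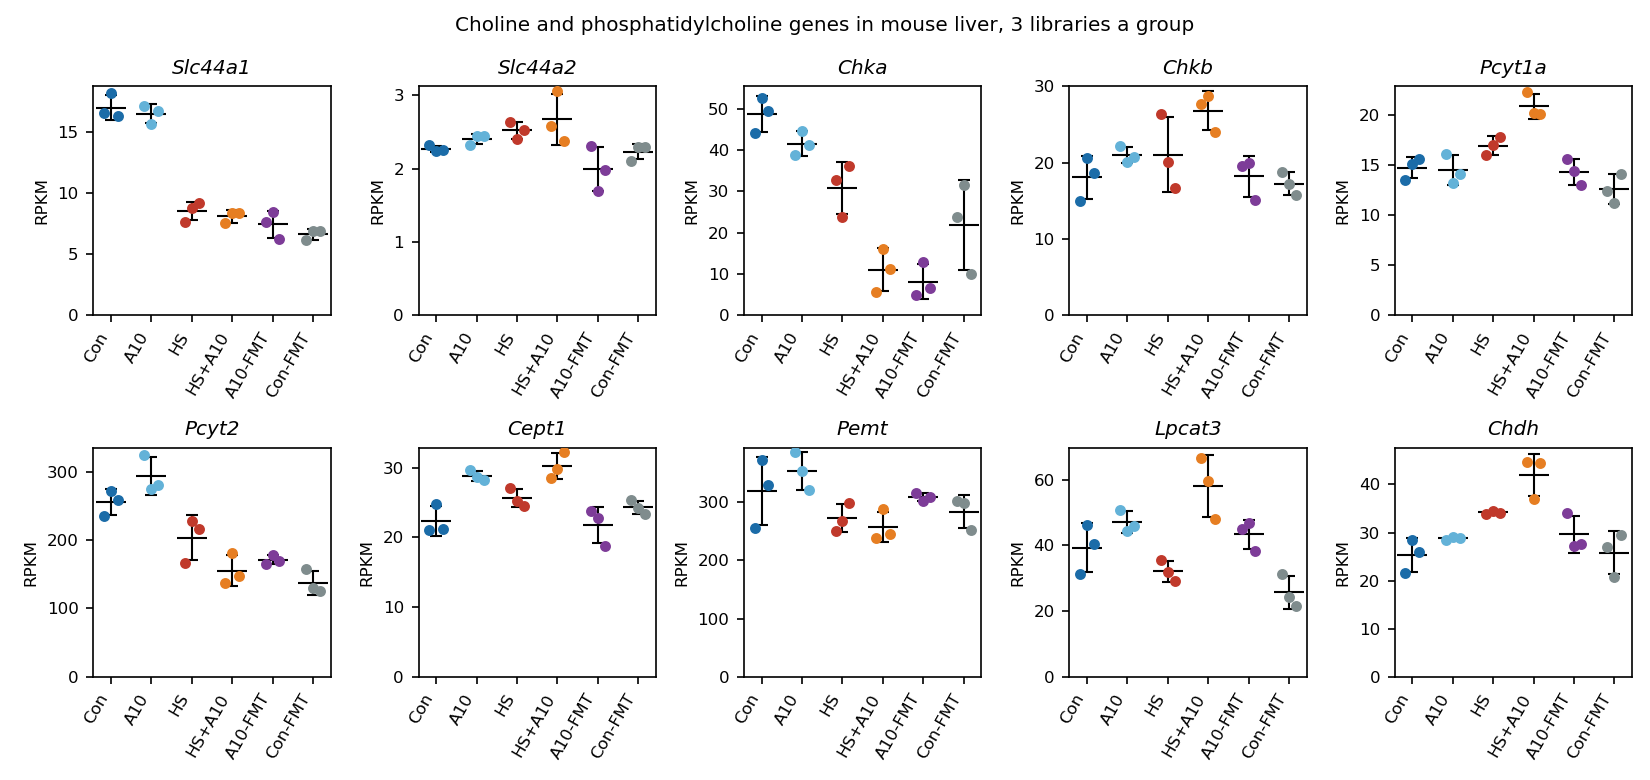
RPKM of the 10 genes in each library, with the group mean as a horizontal bar and the SD as a vertical one (n = 3 libraries), on axes that start at 0. Slc44a1 separates Con and A10 (15.7 to 18.2 RPKM) from the 12 libraries of mice on the high-fat diet with STZ (6.14 to 9.18 RPKM), while Chka falls to its lowest level in A10-FMT (4.86 to 12.8 RPKM).

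Slc44a1 (CTL1), which carries choline across the plasma and mitochondrial membranes, was measured at 16.6, 18.2 and 16.3 RPKM in Con and at 17.2, 15.7 and 16.7 RPKM in A10. In HS it was at 7.69, 8.77 and 9.18 RPKM, and in HS+A10 at 7.53, 8.43 and 8.39 RPKM. The recipients had 7.66, 8.46 and 6.28 RPKM in A10-FMT and 6.14, 6.90 and 6.93 RPKM in Con-FMT. No library of a mouse on the high-fat diet with STZ reached the level of any library without them. HS lay at 0.502 of the Con mean, a log2 change of -0.92 ± 0.09 (SE). In HS+A10 against A10, whose group means used none of those libraries, Slc44a1 fell by 0.94 ± 0.09 on the log2 scale (limma, adjusted p = 2.5e-05), to 0.491 of the A10 mean. The SE and p there rest on the spread in all 18 libraries, HS and Con included. The gene lies on chromosome 4 of GRCm38, from 53440413 to 53622478 on the plus strand. Its order of group means ran from Con-FMT (6.66 RPKM) over A10-FMT (7.47), HS+A10 (8.12) and HS (8.55) to A10 (16.5) and Con (17.0), and the one gap between neighbours where libraries did not overlap was that between HS and A10. Dbp stood at 1.17 to 2.22 RPKM in HS and was high in HS+A10, and its part in the Slc44a1 difference was not tested.

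The genes whose log2(RPKM + 1) values most resembled those of Slc44a1 over the 18 libraries were Adra1b, an alpha-1 adrenergic receptor (Pearson r = 0.976), and the NKG2D ligand genes Raet1e (r = 0.950) and Raet1d (r = 0.945). Slc44a1 is also the member with the smallest adjusted p outside HS against Con, and these r values, over libraries that share the same group differences, are given as a description.

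Slc44a2 (CTL2), a related transporter of choline and ethanolamine, was the lowest of the 10 genes, at 1.70 to 3.06 RPKM in all 18 libraries. HS had 2.64, 2.41 and 2.53 RPKM and A10-FMT 2.31, 1.70 and 1.98 RPKM, which did not overlap. It fell by 0.24 ± 0.08 on the log2 scale in A10-FMT against HS (limma, adjusted p = 0.0486). The call did not hold without A10-FMT replicate 2 (adjusted p = 0.196) or under most other settings. The median over all genes in that comparison was -0.16, so the fall stood close to the shift of the whole table.

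The sequences upstream of the 2 genes with the largest falls, Slc44a1 and Chka, are shown because both genes were lower with the high-fat diet and STZ and the letters of their promoters differ. They are the 250 bases before the transcription start from RefSeq (GRCm38.p6, plus strand), which lists promoters for 9 of the 10 genes. Capitals mark CCAAT.
Slc44a1, chr4:53440163-53440412: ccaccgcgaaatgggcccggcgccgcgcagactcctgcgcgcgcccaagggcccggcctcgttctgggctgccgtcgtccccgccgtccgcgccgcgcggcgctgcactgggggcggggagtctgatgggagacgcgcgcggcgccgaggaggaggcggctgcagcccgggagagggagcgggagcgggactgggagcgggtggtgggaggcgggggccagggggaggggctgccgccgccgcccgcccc
Chka, chr19:3851523-3851772: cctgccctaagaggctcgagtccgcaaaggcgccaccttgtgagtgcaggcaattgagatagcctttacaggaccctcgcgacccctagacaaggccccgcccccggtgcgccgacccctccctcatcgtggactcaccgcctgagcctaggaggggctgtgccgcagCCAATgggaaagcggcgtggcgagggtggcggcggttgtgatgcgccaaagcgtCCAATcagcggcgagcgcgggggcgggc
GC made up 81.2% of the bases before Slc44a1 and 68.0% of those before Chka, against a median of 52.0% over the promoters of 27025 symbols. CCAAT was found at bases 169 and 223 before Chka, counted from the first base printed, and not before Slc44a1 on either strand, and 34.5% of all promoters held it. The letters CACGTG (6.05% of all promoters), TTATGTAA (0.862%), TTATGCAA (0.744%) and TGACGTCA (1.62%), searched on both strands, were found in none of the 9 genes' windows. CCAAT was also present before Chkb and Lpcat3, and before Slc44a2 and Pemt in only part of their listed windows. The shares of all promoters rest on a single window per symbol. These matches describe letters only.

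Chka, the choline kinase that makes phosphocholine as the first step of the CDP-choline route, varied most among the 10 genes, with a 6.03-fold span between the highest and lowest group mean. It stood at 44.1, 52.5 and 49.5 RPKM in Con and at 38.7, 44.7 and 41.1 RPKM in A10. HS had 32.7, 23.8 and 36.1 RPKM, HS+A10 had 5.72, 16.1 and 11.2 RPKM, and A10-FMT had 4.86, 12.8 and 6.54 RPKM. Con-FMT was spread widely, at 23.8, 31.5 and 10.1 RPKM. The HS libraries lay below all Con libraries and above all HS+A10 and A10-FMT libraries, whereas Con-FMT overlapped with HS, HS+A10 and A10-FMT. Chka lies on chromosome 19, from 3851773 to 3894369 on the plus strand. On the log2 scale it fell by 1.92 ± 0.38 in HS+A10 against A10 (limma, adjusted p = 0.0026), to 0.265 of the A10 mean. In A10-FMT it fell by 1.89 ± 0.38 against HS (adjusted p = 0.0041), a call that held in all 14 other settings. It fell by 1.49 in HS+A10 against HS (adjusted p = 0.031) and by 1.29 in A10-FMT against Con-FMT (adjusted p = 0.028). Those last calls each held in only 8 of 14 other settings. The former was lost, for instance, without HS+A10 replicate 1 (adjusted p = 0.147), and the latter without Con-FMT replicate 2 (adjusted p = 0.117). The HS-against-Con change was -0.66 ± 0.38.

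Chka levels were mostly lower where Dbp was high, with overlap. The libraries with Dbp above 47 RPKM had Chka between 4.86 and 31.5 RPKM, and those with Dbp below 4 RPKM had Chka between 23.8 and 52.5 RPKM. Of the 13 clock genes listed, A10-FMT against HS and HS+A10 against HS each had 7 called higher and 4 lower while HS+A10 against A10 and Con-FMT against HS each had 7 higher and 3 lower. The labels do not give the hour at which livers were taken, and the part of this difference in the Chka result was not tested. Between A10-FMT and Con-FMT, which both had high Dbp, 1 clock gene was called. Chka was called lower in A10-FMT there (-1.29 ± 0.38, limma, adjusted p = 0.028), though not in all settings, and its ranges overlapped.

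**Figure D2:**
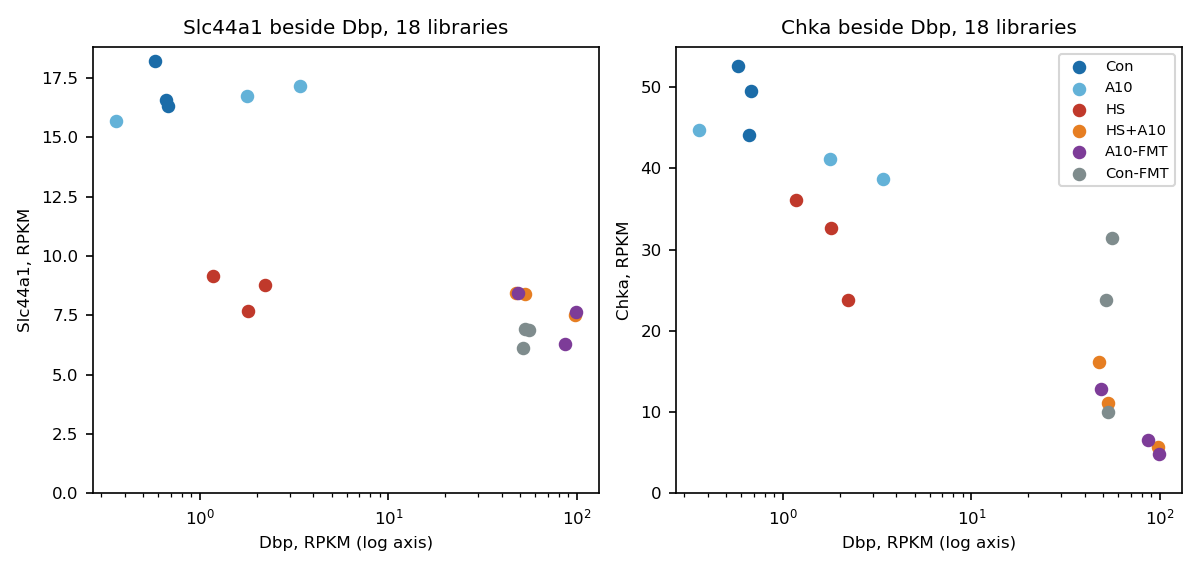
Slc44a1 (left) and Chka (right) in RPKM against Dbp in RPKM on a log axis, 1 point a library, coloured by group. The HS libraries have 7.69 to 9.18 RPKM of Slc44a1 at Dbp of 1.17 to 2.22 RPKM, and the libraries with Dbp at or above 47.3 RPKM include the lowest Chka levels.

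Chkb, the second choline kinase, ranged from 15.0 to 28.8 RPKM. HS+A10 was highest, at 27.7, 28.8 and 24.0 RPKM, above all A10 libraries (22.2, 20.1 and 20.8 RPKM). The difference of 0.34 ± 0.15 on the log2 scale was not called (limma, adjusted p = 0.127), and it was called when these groups alone were fitted (adjusted p = 0.032). No other comparison called Chkb in the fit of all libraries. In HS+A10 against HS it was called in 1 of 14 other settings (lowest adjusted p = 0.027). Its exons overlap those of a read-through gene on the same strand, so part of its reads could belong to either.

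Pcyt1a, the enzyme that makes CDP-choline and sets the pace of the route, was at 13.5, 15.1 and 15.5 RPKM in Con and 16.1, 13.2 and 14.1 RPKM in A10. It stood at 16.0, 17.0 and 17.8 RPKM in HS and at 22.3, 20.2 and 20.1 RPKM in HS+A10. HS+A10 was above every other library. Pcyt1a rose by 0.50 ± 0.10 on the log2 scale in HS+A10 against A10 (limma, adjusted p = 0.0021), 1.44 times the A10 mean, while Chka, one step before it, fell in the same comparison. In Con-FMT (12.4, 11.2 and 14.1 RPKM) it fell by 0.40 ± 0.10 against HS (adjusted p = 0.0077). A10-FMT had 15.6, 14.4 and 13.0 RPKM, also below all HS libraries, with a change of -0.23 that was not called (adjusted p = 0.093). Exons of Slc51a, a bile acid transporter subunit on the other strand, overlap those of Pcyt1a, and the counting is not stated to use strand.

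Pcyt2, the matching enzyme that makes CDP-ethanolamine for phosphatidylethanolamine, was far more abundant than Pcyt1a. It was measured at 236, 272 and 259 RPKM in Con, 325, 274 and 280 RPKM in A10, 166, 228 and 216 RPKM in HS and 137, 180 and 148 RPKM in HS+A10. In A10-FMT it was at 165, 178 and 170 RPKM and in Con-FMT at 158, 129 and 126 RPKM. All 12 libraries of mice on the high-fat diet with STZ lay below the 6 others. Pcyt2 fell by 0.92 ± 0.13 in HS+A10 against A10 (limma, adjusted p = 2.9e-04), to 0.529 of the A10 mean, and by 0.55 ± 0.13 in Con-FMT against HS (adjusted p = 0.0075). The HS-against-Con change was -0.34 ± 0.13. Between the recipients, A10-FMT lay above Con-FMT in every library, with a change of 0.32 ± 0.13 that was not called (adjusted p = 0.103) and was called when libraries were scaled to the same median (0.40, adjusted p = 0.033).

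Cept1, which joins CDP-choline or CDP-ethanolamine to diacylglycerol, stayed within 18.8 and 32.2 RPKM. Con had 21.0, 24.8 and 21.2 RPKM and A10 29.6, 28.6 and 28.3 RPKM, which did not overlap. The change of 0.36 ± 0.09 in A10 against Con was not called (limma, adjusted p = 0.132), and it was called without Con replicate 2 (0.43, adjusted p = 0.0469). Its exons overlap those of Dennd2d and Dram2 on the other strand.

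Pemt, the methyltransferase of the second route, was the most abundant of the genes, at 239 to 386 RPKM. A10 had 386, 354 and 322 RPKM and HS+A10 239, 288 and 246 RPKM. Pemt fell by 0.46 ± 0.13 on the log2 scale in HS+A10 against A10 (limma, adjusted p = 0.019), to 0.728 of the A10 mean. The call did not hold without HS+A10 replicate 1 or 3 or A10 replicate 1 or 2 (adjusted p between 0.0565 and 0.0778). Con was spread from 255 to 372 RPKM and overlapped with HS (251, 269 and 298 RPKM). A10-FMT, at 316, 303 and 309 RPKM, lay above all HS and all Con-FMT libraries, with changes of 0.18 and 0.13 that were not called. After median scaling the change against HS was 0.38 and was called (adjusted p = 0.0499).

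Lpcat3, which places polyunsaturated fatty acids into phosphatidylcholine, was called higher with the microbiota of AOS-dosed donors than with that of control donors. It was at 45.1, 46.7 and 38.3 RPKM in A10-FMT and at 31.3, 24.2 and 21.6 RPKM in Con-FMT, so that every A10-FMT library lay above every Con-FMT library. The rise was 0.74 ± 0.16 on the log2 scale (limma, adjusted p = 0.0043), 1.69 times the Con-FMT mean, and the call held in all 14 other settings. HS stood at 35.5, 31.9 and 29.1 RPKM and HS+A10 at 66.6, 59.7 and 48.1 RPKM, a rise of 0.83 ± 0.16 (adjusted p = 0.0078). That call did not hold when these groups alone were fitted (adjusted p = 0.062). Against HS, A10-FMT differed by 0.42 ± 0.16 (adjusted p = 0.063, not called), and the change was called at 0.61 when libraries were scaled to the same median (adjusted p = 0.016). Con (31.4, 46.1 and 40.4 RPKM) and A10 (50.9, 44.4 and 46.0 RPKM) overlapped. Lpcat3 shares exon sequence with Emg1 on the other strand.

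Chdh, which oxidises choline towards betaine, was at 21.5, 28.5 and 25.9 RPKM in Con and at 33.9, 34.4 and 34.2 RPKM in HS, a log2 change of 0.43 ± 0.13. It rose by 0.52 ± 0.13 in HS+A10 (44.6, 37.0 and 44.5 RPKM) against A10 (28.5, 29.0 and 28.9 RPKM), 1.46 times the A10 mean (limma, adjusted p = 0.0087). In Con-FMT (26.9, 20.8 and 29.6 RPKM) it fell by 0.41 ± 0.13 against HS (adjusted p = 0.029), a call that held in 7 of 14 other settings and was lost, among others, without Con-FMT replicate 2 (adjusted p = 0.138) and without any one HS library (adjusted p between 0.061 and 0.069). A10-FMT had 34.0, 27.3 and 27.6 RPKM and overlapped with HS by its first library. Chdh shares exon sequence with Cacna1d on the other strand.

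Set side by side, the steps of the pathway moved in different directions between HS+A10 and A10, groups that differed in Dbp (47.3 to 97.5 against 0.360 to 3.41 RPKM) as well as in diet and STZ. In HS+A10 against A10, the genes of choline uptake (Slc44a1), the first kinase step (Chka), CDP-ethanolamine synthesis (Pcyt2) and phosphatidylethanolamine methylation (Pemt) fell, and those of CDP-choline synthesis (Pcyt1a) and choline oxidation (Chdh) rose. The calls of Slc44a1, Chka, Pcyt2, Pcyt1a and Chdh held in all 15 other settings. In all, 2 of 10 genes were called higher and 4 of 10 lower, beside 13.6% and 7.28% of all genes tested. The median log2 change was 0.08 over the 10 genes and 0.04 over all genes, and the same counts were reached after median scaling and without replicate 3 of Con and A10, which left 1 gene, Slc44a1, called in HS against Con. In HS against Con, 1 gene was called higher (Chdh) and 1 lower (Slc44a1), where 15.9% and 1.87% of all genes were, and nothing is read from that count because its values took part in the choice of genes. After median scaling the counts there were 0 higher and 3 lower (Slc44a1 at -1.09, Pcyt2 at -0.53 and Pemt at -0.40), with Chdh at 0.25 and not called. Those counts too are a description only. Medians were -0.05 over the 10 genes and 0.14 over all genes. Of the 8 hepatocyte markers, 3 were called lower and 0 higher in HS+A10 against A10 (median log2 change -0.24). Stellate cell markers moved too, with 6 genes that summed to 138 to 180 RPKM in HS and 135 to 139 RPKM in HS+A10 against 82.6 to 96.4 RPKM in Con and 96.8 to 110 RPKM in A10, as did 4 erythroid genes in HS (2885 to 10038 RPKM, against 1256 to 1971 RPKM in Con) and 6 endothelial genes in HS+A10 (55.5 to 67.2 RPKM, against 39.6 to 48.5 RPKM in A10), and the part of Dbp, the other clock genes and these cell types in the changes of the choline genes was not tested. In bulk liver, fewer cells of a type and less RNA per cell cannot be told apart.

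The difference between these effects of diet and STZ, with AOS and without, was fitted as an interaction. The HS-against-Con values, which took part in the choice of genes, enter it, so the results of the 10 genes here are a description only. None of the 10 genes was called (limma), and 4 had an unadjusted p under 0.05 (Pcyt2, Lpcat3, Chka and Pcyt1a), beside 1320 of all 10204 genes. The median was -0.01 over the 10 genes against -0.09 over all genes. Chka had the largest estimate, -1.26 ± 0.54 (adjusted p = 0.346), and Slc44a1 one of -0.03 ± 0.13. Of all genes, 0.0098% were called higher and 0% lower, which was 1 gene, Dbp. With single libraries left out the count over all genes ran from 0 (without HS replicate 3) to 118 (without HS replicate 1, 96 of them lower).

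**Figure D3:**
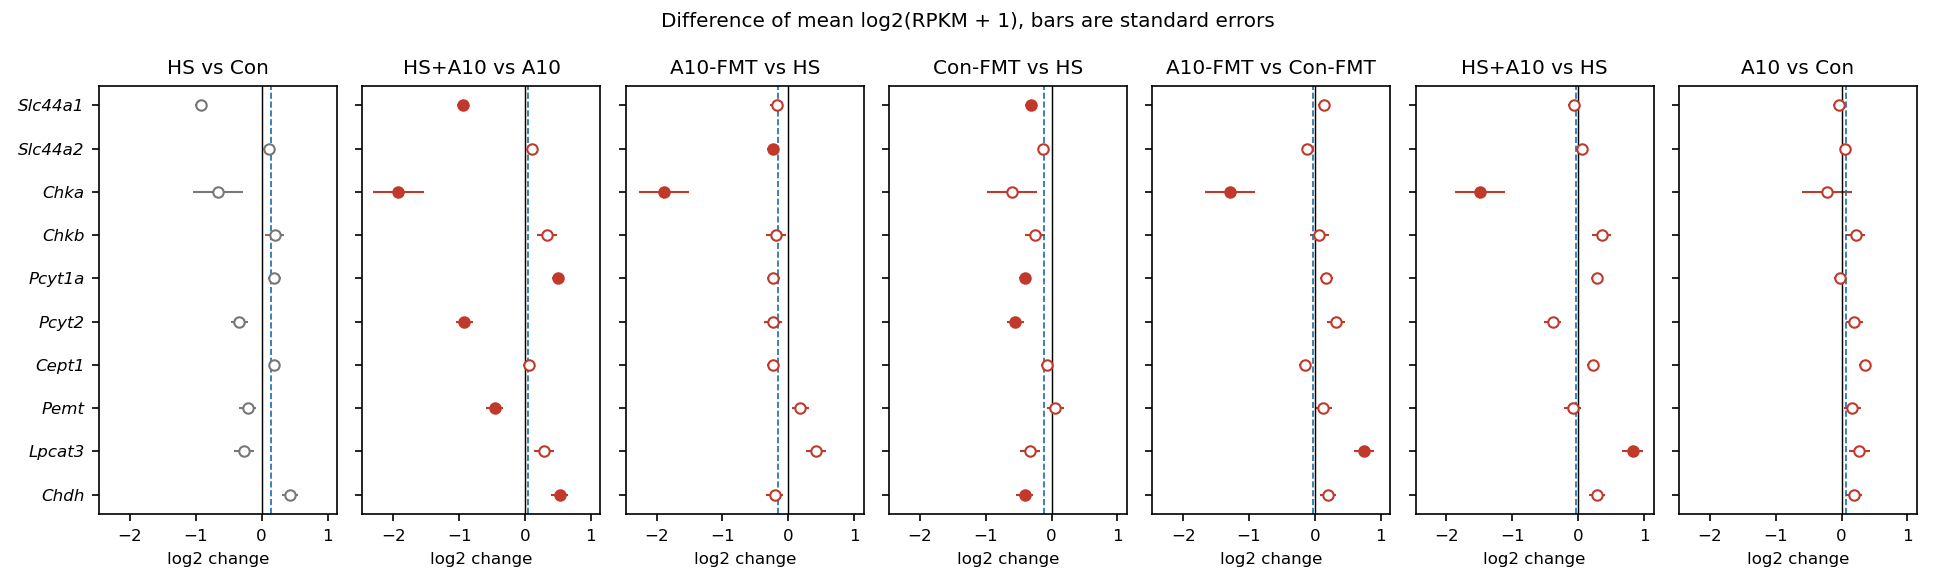
Log2 change of each gene in 7 comparisons, as the difference of mean log2(RPKM + 1) with its standard error as a bar. Filled points were called (adjusted p under 0.05), open points were not, grey points in HS against Con carry no test, and the dashed line is the median over all 10204 genes. Slc44a1 sits near -0.9 in both comparisons of the high-fat diet with STZ, Chka is far below 0 in 4 of the panels, and Lpcat3 is called higher in A10-FMT against Con-FMT and in HS+A10 against HS.

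The recipients of microbiota were compared with HS and with each other. A10-FMT against HS, Con-FMT against HS and HS+A10 against HS share the HS libraries, so their calls are not independent. In A10-FMT against HS, 2 of 10 genes were called lower (Chka and Slc44a2) and 0 higher, beside 21.0% and 2.09% of all genes, so the share called lower was close to the background. After median scaling the counts were 2 higher (Lpcat3 and Pemt) and 1 lower (Chka), and after quantile normalization 1 higher and 1 lower. Medians were -0.22 over the 10 genes and -0.16 over all genes. In Con-FMT against HS, 4 of 10 were lower (Pcyt2, Pcyt1a, Slc44a1 and Chdh) and 0 higher, beside 19.0% and 4.61%, with medians of -0.32 and -0.12. Slc44a1 was thus not higher in either recipient group than in HS: it changed by -0.18 ± 0.09 in A10-FMT (adjusted p = 0.171) and fell by 0.32 ± 0.09 in Con-FMT (adjusted p = 0.023), the latter not called after median scaling or without Con-FMT replicate 1, HS replicate 2 or HS replicate 3. In A10-FMT against Con-FMT, 1 of 10 was higher (Lpcat3) and 1 lower (Chka), beside 6.72% and 12.0%, with medians of 0.13 and -0.03. Without Con-FMT replicate 3, the library with pancreatic genes, 4 genes were called in Con-FMT against HS and 2 in A10-FMT against Con-FMT, as with it. Kupffer cell markers, 7 genes with summed RPKM of 41.9 to 53.9 in A10-FMT and 62.7 to 108 in HS, were called lower for 5 of 7 in A10-FMT against HS, and 3 of 6 stellate and 3 of 4 erythroid markers were called lower in Con-FMT against HS. Endothelial markers were called lower for 3 of 6 in A10-FMT against HS. In A10-FMT against Con-FMT, 3 of 8 hepatocyte, 2 of 6 endothelial, 2 of 3 tested lymphoid and neutrophil and 1 of 3 tested cholangiocyte markers were called lower. The part of these cell types was not tested.

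The balance of higher and lower calls over all genes depended on scaling. As deposited, the median change over all genes was over 0.1 in size in 3 comparisons, HS against Con, A10-FMT against HS and Con-FMT against HS. Its part in the balance of calls was not tested. With each library scaled to the same median, 398 genes were higher and 486 lower in HS against Con (1618 and 191 as deposited), 639 and 516 in A10-FMT against HS (213 and 2145), and 858 and 1240 in Con-FMT against HS (470 and 1943). The split was 1302 and 958 in A10-FMT against Con-FMT (686 and 1228), 579 and 356 in HS+A10 against HS (301 and 446), and 1243 and 1151 in HS+A10 against A10 (1388 and 743). Calls lost under that scaling were Slc44a2 in A10-FMT against HS (-0.11, limma, adjusted p = 0.412) and Slc44a1 (-0.21, adjusted p = 0.091) and Chdh (-0.30, adjusted p = 0.054) in Con-FMT against HS.

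AOS given directly was compared with no AOS. In HS+A10 against HS, 1 of 10 genes was higher (Lpcat3) and 1 lower (Chka), beside 2.95% and 4.37% of all genes, with medians of 0.14 and -0.03. Slc44a1 changed by -0.06 ± 0.09 (limma, adjusted p = 0.721). In A10 against Con, 0 of 10 genes were called, 1 had an unadjusted p under 0.05 (Cept1), and 0.049% of all genes were called higher and 0.0196% lower, 7 genes of 10204, while 1418 had an unadjusted p under 0.05. That count of 7 became 73 without Con replicate 2 and 0 without Con replicate 1, Con replicate 3 or A10 replicate 3. The count over all genes in HS+A10 against HS, 747, became 159 without HS+A10 replicate 1 and 1239 without HS replicate 1. The changes of the 10 genes in A10 against Con ranged from -0.23 ± 0.38 for Chka to 0.36 ± 0.09 for Cept1. The median there was 0.18 over the 10 genes and 0.07 over all genes. An exact permutation test of 3 libraries against 3 cannot give a p below 0.1, so single genes were tested in the fit across all genes.

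The rest of the pathway was read from 9 lists of 62 further genes, of which 48 were tested. These further genes were fitted without extra scaling and with all libraries only, so how far their calls and counts depend on the settings was not tested. In HS+A10 against A10, 16 of the 48 were called higher and 1 lower, beside 13.6% and 7.28% of all genes. The largest rises with the smallest p were those of Gpcpd1, which releases choline from glycerophosphocholine (2.82 ± 0.33 on the log2 scale, limma, adjusted p = 6.7e-05), of the phosphatidylcholine transfer protein gene Pctp (2.38 ± 0.28, adjusted p = 8.0e-05) and of Abcb4, the floppase that moves phosphatidylcholine into bile (1.57 ± 0.18, adjusted p = 6.7e-05). Selenoi, an ethanolamine phosphotransferase, fell by 0.35 ± 0.12 (adjusted p = 0.0493). Of the 7 genes of choline oxidation and betaine use, Chdh among them, 4 rose and 0 fell, beside the same shares. Mean Abcb4 was 34.6 ± 1.52 RPKM in Con, 47.5 ± 4.41 in A10, 116 ± 35.4 in HS, 143 ± 14.4 in HS+A10, and in the recipients 81.4 ± 12.4 with A10-FMT and 85.3 ± 15.6 with Con-FMT (SD, n = 3), and the 4 groups with low Slc44a1 had the higher means. In HS against Con, 13 of the 48 were called higher and 0 lower, beside 15.9% and 1.87% of all genes, given as a description like the choline genes of that comparison. They included Abcb4 (1.67 ± 0.18), Mat1a, the liver S-adenosylmethionine synthetase (1.25 ± 0.17), and Etnppl, which breaks down phosphoethanolamine (2.27 ± 0.37).

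Among the recipients, 3 of the 48 genes were higher and 13 lower in A10-FMT against HS (2.09% and 21.0% of all genes), and 4 higher and 15 lower in Con-FMT against HS (4.61% and 19.0%). In the ethanolamine and serine branch, with Pcyt2 counted, 5 of 9 genes were lower in A10-FMT, 7 of 9 were lower in Con-FMT, and 0 were higher in both, beside 21.0% and 19.0% of all genes lower. The leading genes in A10-FMT against HS were Etnk1, an ethanolamine kinase (-0.77 ± 0.08, limma, adjusted p = 1.2e-04), the phospholipase D gene Pld1 (-0.64 ± 0.11, adjusted p = 0.0019) and Selenoi (-0.62 ± 0.12, adjusted p = 0.0031). Higher were Enpp2, which makes lysophosphatidic acid (0.43 ± 0.13), Mat2a (0.38 ± 0.12) and Gpcpd1 (1.01 ± 0.33). In Con-FMT against HS they were Selenoi (-0.81 ± 0.12), the phosphocholine phosphatase gene Phospho1 (-1.57 ± 0.28) and Pctp (-1.39 ± 0.28), and higher were Mtrr (0.43 ± 0.11), Gde1 (0.57 ± 0.16) and Gpcpd1 (1.12 ± 0.33).

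Mean Gpcpd1 was higher in the groups with high Dbp, with overlap between libraries. It averaged 9.07 to 20.0 RPKM in Con, A10 and HS and 41.6 to 84.2 RPKM in HS+A10, A10-FMT and Con-FMT. The HS libraries reached 28.3 RPKM and the A10-FMT libraries began at 25.5 RPKM. Gpcpd1 averaged 9.07 RPKM in Con and 20.0 RPKM in HS, at mean Dbp of 0.640 and 1.73 RPKM. It averaged 41.6 RPKM in A10-FMT and 84.2 RPKM in HS+A10, at mean Dbp of 77.9 and 65.8 RPKM. The part of Dbp and the other clock genes in the Gpcpd1 differences was not tested.

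Between donors, 6 of the 48 genes were higher and 4 lower in A10-FMT against Con-FMT, beside 6.72% and 12.0% of all genes. Of the 3 genes in the sphingomyelin list, 2 were called higher (6.72% of all genes), Samd8 and Sgms2, which act on ceramide (Sgms2 with phosphatidylcholine as the donor). Each rose by 0.55 (SE 0.11 and 0.12, limma, adjusted p = 0.0026 and 0.0046). Sgms1, the remaining gene of that list, was not called, with means of 3.10 RPKM in A10-FMT and 3.38 RPKM in Con-FMT. Ptdss2, a phosphatidylserine synthase, rose by 0.46 ± 0.12. Etnk1 fell by 0.38 ± 0.08, Gde1 by 0.60 ± 0.16 and Tmem30a, a flippase subunit, by 0.34 ± 0.10. In the remodelling list that holds Lpcat3, 2 of 6 tested genes rose (6.72% of all genes), Lpcat3 and the lysosomal phospholipase gene Pla2g15 (0.53 ± 0.14), and 0 fell. In HS+A10 against HS, 4 of 48 were higher and 1 lower (2.95% and 4.37% of all genes), led by Gpcpd1 (1.97 ± 0.33), Pla2g6 (0.91 ± 0.16), Enpp2 (0.56 ± 0.13) and Pnpla6 (-0.56 ± 0.14), and in A10 against Con 0 were called.

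**Figure D4:**
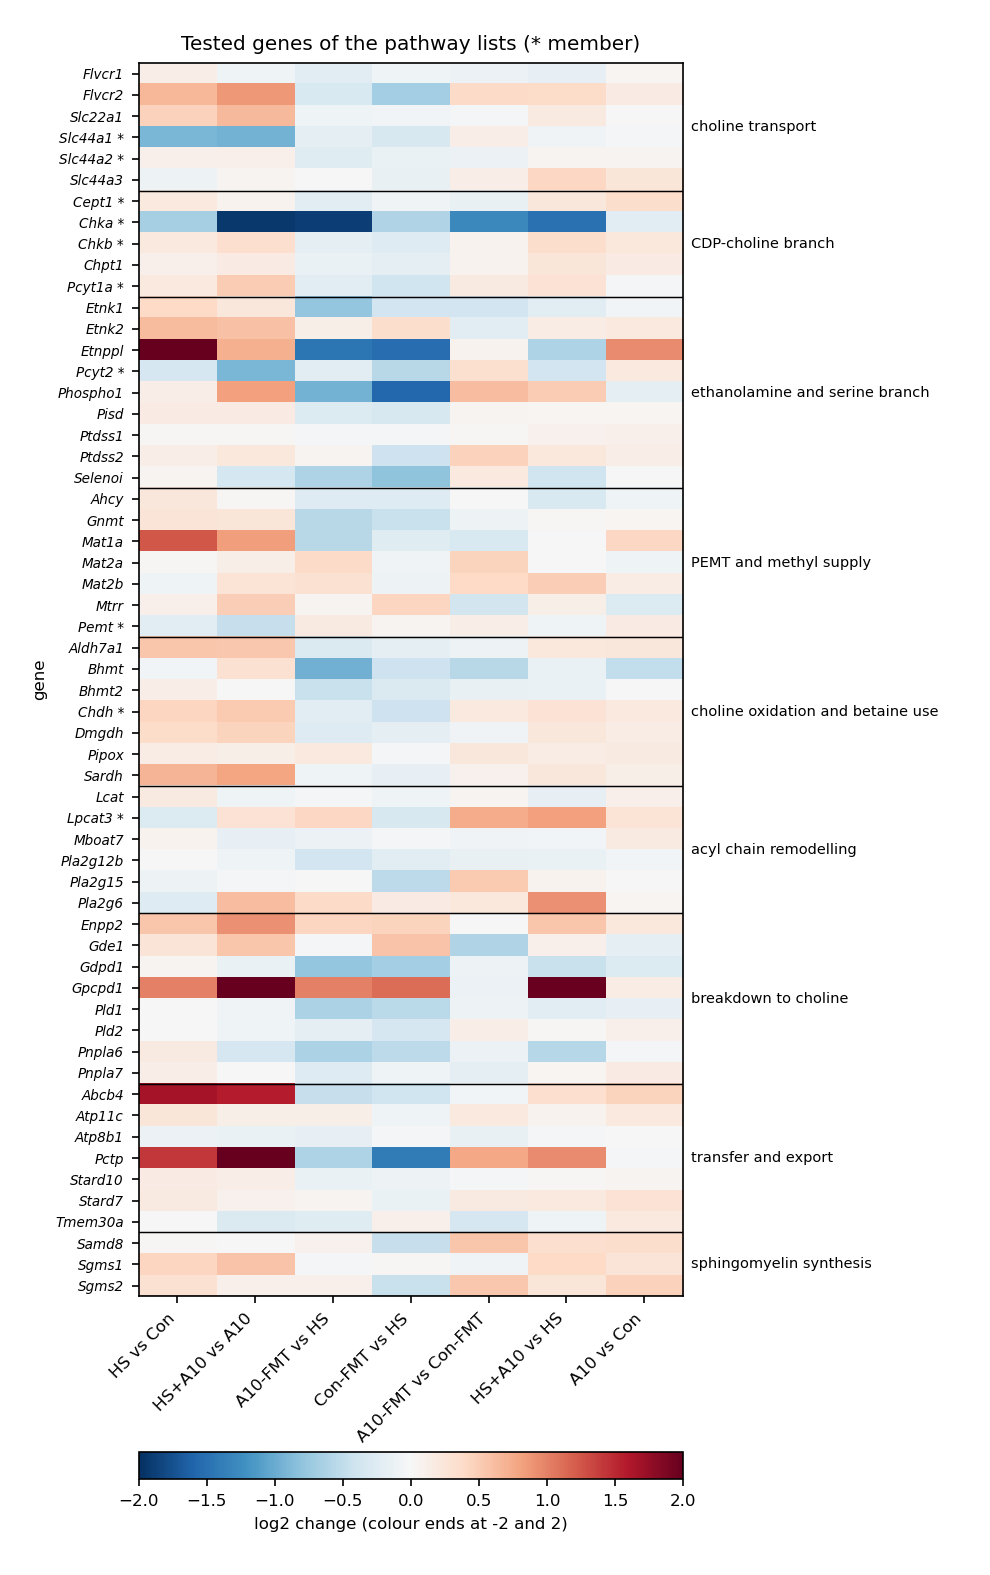
Log2 change of the tested genes of the pathway lists in 7 comparisons, red for higher and blue for lower in the first-named group, with the colour ending at -2 and 2 and the 10 genes followed here marked by a star. Slc44a1 is blue in both comparisons of the high-fat diet with STZ while Abcb4, Pctp and Gpcpd1 are red, and Chka is deep blue in HS+A10 against A10, A10-FMT against HS and HS+A10 against HS.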

How the data were processed

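Liver RNA-seq of 6 groups of 3 libraries was used, grouped by the labels. The authors made oligo(dT)-enriched libraries, aligned the reads with SOAPaligner and deposited 1 RPKM value per gene and library, with 2 decimals. The submitters' processing notes also list Bowtie 0.12.2 and mm10. The number of reads and the strand setting are not given in the sources used here.

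RPKM was transformed as log2(RPKM + 1), and genes whose RPKM averaged 1 or more were fitted in limma 3.58.1 (R 4.3.3) with 1 mean per group, a variance trend and all 18 libraries in 1 fit. P-values are two-sided and Benjamini-Hochberg adjusted over 10204 genes, and genes were called at an adjusted p under 0.05. A fold change on this scale understates the change of low genes, and ratios of means were taken from RPKM. The code was tested on simulated data. DEGseq, the study's test, takes no account of replicate spread and was not used. Positions came from GENCODE vM21 (GRCm38) and promoters from RefSeq. Markers, lists and figures were handled in Python 3.11.15.

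The members and the gene lists were chosen with earlier results of these data known. Per comparison, the called list genes of smallest adjusted p, up to 3 higher and 3 lower, were named, and Pla2g15 and Dbp were named after their values had been seen. One list gene is not reported here and enters no list count. Tried besides were 0.1 as the pseudocount, all genes unfiltered, a minimum mean of 5 RPKM, quantile normalization, median scaling, a replicate block, no variance trend, only the compared groups in the fit, and each library left out in turn. Leaving out replicate 3 of both Con and A10 was chosen after seeing the data.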

Additional observations from a re-analysis of the deposited data

How the results depend on the processing

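Of the 16 member changes called outside HS against Con, none changed direction under any alternative run, though several were no longer called. With only the compared groups in the fit, 1 member was called in HS against Con (2 in the fit of all libraries), 1 in A10-FMT against HS (2), 0 in Con-FMT against HS (4), 1 in A10-FMT against Con-FMT (2) and 0 in HS+A10 against HS (2), where the fit has fewer libraries. Without a filter on low values the counts were 1 in HS against Con, 1 in A10-FMT against HS, 1 in A10-FMT against Con-FMT and 1 in HS+A10 against HS, and with a mean of at least 5 RPKM 1 in A10-FMT against HS, where Slc44a2 was not tested. Median scaling gave 3 in HS against Con, 3 in A10-FMT against HS, 2 in Con-FMT against HS, 4 in A10-FMT against Con-FMT and 4 in HS+A10 against HS, and quantile normalization gave 1 in HS against Con, 4 in A10-FMT against Con-FMT and 5 in HS+A10 against HS. Without replicate 3 of Con and A10, 1 was called in HS against Con. With single libraries left out, the counts ranged from 1 to 2 in HS against Con, 5 to 6 in HS+A10 against A10, 1 to 3 in A10-FMT against HS, 2 to 4 in Con-FMT against HS, 1 to 2 in A10-FMT against Con-FMT, 1 to 4 in HS+A10 against HS and 0 to 1 in A10 against Con. In HS against Con, Chdh was called in 5 of 15 other settings. Member counts of that comparison are a description only, because its values took part in the choice of genes. The cause of the changes between settings was not tested.

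Over all genes, the fit of only the compared groups called 566 genes in HS against Con (1809), 814 in A10-FMT against HS (2358), 798 in Con-FMT against HS (2413), 685 in A10-FMT against Con-FMT (1914) and 57 in HS+A10 against HS (747), and a mean of at least 5 RPKM called 1307 in Con-FMT against HS and 1229 in A10-FMT against Con-FMT. Median scaling called 884 in HS against Con and 1155 in A10-FMT against HS, and quantile normalization 876 and 1114. Without replicate 3 of Con and A10, 697 were called in HS against Con and 1159 in HS+A10 against A10 (2131). With single libraries left out, the counts over all genes ranged from 845 to 1597 in HS against Con, 1324 to 1679 in HS+A10 against A10, 1295 to 2584 in A10-FMT against HS, 1755 to 2276 in Con-FMT against HS, 1176 to 1638 in A10-FMT against Con-FMT, 159 to 1239 in HS+A10 against HS, 0 to 73 in A10 against Con and 0 to 118 in the interaction.

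Changes that were close to 0 turned direction, none of them called. Under quantile normalization and median scaling Slc44a2 was at -0.021 and -0.025 in HS against Con, Slc44a1 at 0.092 and 0.091 and Slc44a2 at 0.069 and 0.086 in the interaction. Under quantile normalization Slc44a2 was at 0.038 in Con-FMT against HS, and under median scaling Cept1 was at 0.037 there and Slc44a2 at -0.0012 in A10 against Con. Without replicate 3 of Con and A10, Pcyt1a was at 0.026 in A10 against Con, and Slc44a1 at 0.011 and Slc44a2 at 0.0097 in the interaction. With single libraries left out, Slc44a2 ranged from -0.019 to 0.11 in HS+A10 against HS, Slc44a1 from -0.067 to 0.0074 and Pcyt1a from -0.10 to 0.035 in A10 against Con, and in the interaction Slc44a1 ranged from -0.092 to 0.022, Slc44a2 from -0.075 to 0.057 and Chkb from -0.0086 to 0.31.

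The replicate numbers of the labels were not taken as a pairing, because in 0 of 7 comparisons did all pairs correlate above 0.1 (range -0.093 to 0.262). This rule cannot exclude a pairing of part of the libraries: HS and HS+A10 correlated at 0.227 for replicate 1, -0.026 for replicate 2 and 0.262 for replicate 3. With a replicate block, 1 member was called in A10-FMT against HS, where Slc44a2 was no longer called (adjusted p = 0.067), and the member counts in the other comparisons did not move. The number of reads is unknown, which limits what can be said of low levels such as that of Slc44a2.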
